A study of Mus musculus with 7 samples.

Results

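Cytoplasmic ribosomal protein genes encode the proteins of the large subunit (Rpl genes) and the small subunit (Rps genes) of the ribosome. They were taken as the genes outside chromosome X whose symbol was Rpl or Rps followed by a number and at most 1 letter, or Rplp0, Rplp1, Rplp2 or Rpsa. The Rps6k kinases, pseudogene symbols and paralogue symbols with an l after the number were left out. This gave 72 of the 22556 genes in the expression table, 43 of the large and 29 of the small subunit. A few ribosomal proteins lie outside this rule by their names (such as Rps3a1 and Fau) or their chromosome (Rpl10, Rpl36a, Rpl39 and Rps4x on the X).

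RNA that stays with the chromatin fraction, in which nascent transcripts are enriched, was sequenced (ChrRNA-seq) to follow the effect of METTL3 inhibition. The cells were C7H8 XX mES cells, a single clone of Cast x 129S background with a TetOn promoter in place of the Xist promoter on the Cast allele, grown with LIF on inactivated mouse fibroblast feeders. All groups received DMSO or STM2457, an inhibitor of the m6A methyltransferase METTL3, for 6 h and then for a further 24 h together with 1.0 µg/ml doxycycline (Dox), which starts Xist expression. There were 3 DMSO libraries, 2 libraries at 10 µM STM2457, and 1 library each at 20 µM and 30 µM, so Xist was induced from 1 X chromosome in all groups, controls included. Levels are read pairs over exons and introns, scaled to the same total of pairs on genes in every library (RPM).

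Each ribosome carries a single copy of nearly every one of these proteins, bound to ribosomal RNA that is made in the nucleolus. The genes are short, are transcribed at high rates in dividing cells, and many hold small nucleolar RNAs (snoRNAs), guides for the modification of ribosomal RNA, in their introns. Their mRNAs start with a C followed by a run of pyrimidines, the 5′ terminal oligopyrimidine (TOP) motif, through which translation is matched to growth by mTOR signalling.

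The start sites of 52 of the 72 genes were matched in RefSeq (GRCm38.p6), and 29 of them (55.8%) had a run of at least 6 bases of C or T that began with C within 15 bases on either side of the start, on the coding strand. Of all 27025 RefSeq start sites in that table, 22.4% had such a run. The pentamer CTTTC lay in the same windows of 15 of the 52 genes (28.8%), against 3.97% of all start sites, and it can be part of a longer run. The windows of 30 bases below belong to genes that the results turn on, and capitals mark the pyrimidine run where there is one. These were Rpl12 (chr2:32961697-32961726, plus strand), Rps12 (chr10:23787195-23787224, minus strand), Rpl18 (chr7:45718056-45718085, plus strand), Rpl4 (chr9:64173372-64173401, plus strand), Rps6 (chr4:86857353-86857382, minus strand), Rpsa (chr9:120127751-120127780, plus strand), Rps3 (chr7:99483695-99483724, minus strand) and Rplp0 (chr5:115559452-115559481, plus strand).
Rpl12: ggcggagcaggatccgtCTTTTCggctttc
Rps12: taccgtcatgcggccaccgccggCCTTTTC
Rpl18: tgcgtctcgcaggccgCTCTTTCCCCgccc
Rpl4: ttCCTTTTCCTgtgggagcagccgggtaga
Rps6: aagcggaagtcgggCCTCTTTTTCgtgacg
Rpsa: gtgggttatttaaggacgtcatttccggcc
Rps3: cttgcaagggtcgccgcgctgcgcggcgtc
Rplp0: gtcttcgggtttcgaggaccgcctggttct
The runs of Rpl12, Rpl18 and Rps12 lay 3, 2 and 9 bases into the transcript by the annotated start, while those of Rpl4 and Rps6 began 13 bases and 1 base before it. The windows of Rpsa, Rps3 and Rplp0 held no run, which says only that these letters are not in the windows.

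Ribosomal protein genes had high levels for their length. Their median level was 18.3 RPM per kb of gene span over the 7 libraries, against 1.08 RPM per kb over the 13599 genes that averaged 1 RPM or more, and 68 of the 72 passed that minimum. Their spans were short, from 852 to 11772 bases with a median of 3018.5, against a median of 25530 for all genes tested. They were spread over 18 chromosomes, with 14 of them on chromosome 7.

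The highest levels per kb belonged to Rps12 (chr10:23785183-23787209) at 94.1 RPM per kb, a small subunit protein whose gene holds 3 snoRNA genes, followed by Rpl4 (chr9:64173387-64178562), which lines the peptide exit tunnel, at 69.7 RPM per kb. Next came Rpl12, a protein at the base of the P stalk, at 50.8 RPM per kb, Rpsa, a small subunit protein near the mRNA exit, at 47.0 RPM per kb and Rps20 at 46.8 RPM per kb. The levels of these 5 genes overlapped between libraries, from 9.95 to 95.8 RPM per kb for Rpl12 alone. Rpl4 was above Rps12 at 20 µM and Rpl12 above Rpl4 in 3 libraries, so the order of these genes is not resolved. The lowest levels above the minimum were 2.24 RPM per kb for Rpl29, 6.61 for Rpl22, 7.84 for Rplp2 and 8.08 for Rps10, with Rps13 between the last 2, and of these Rpl29 lay below each of the other 4 genes in every library.

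**Figure D1:**
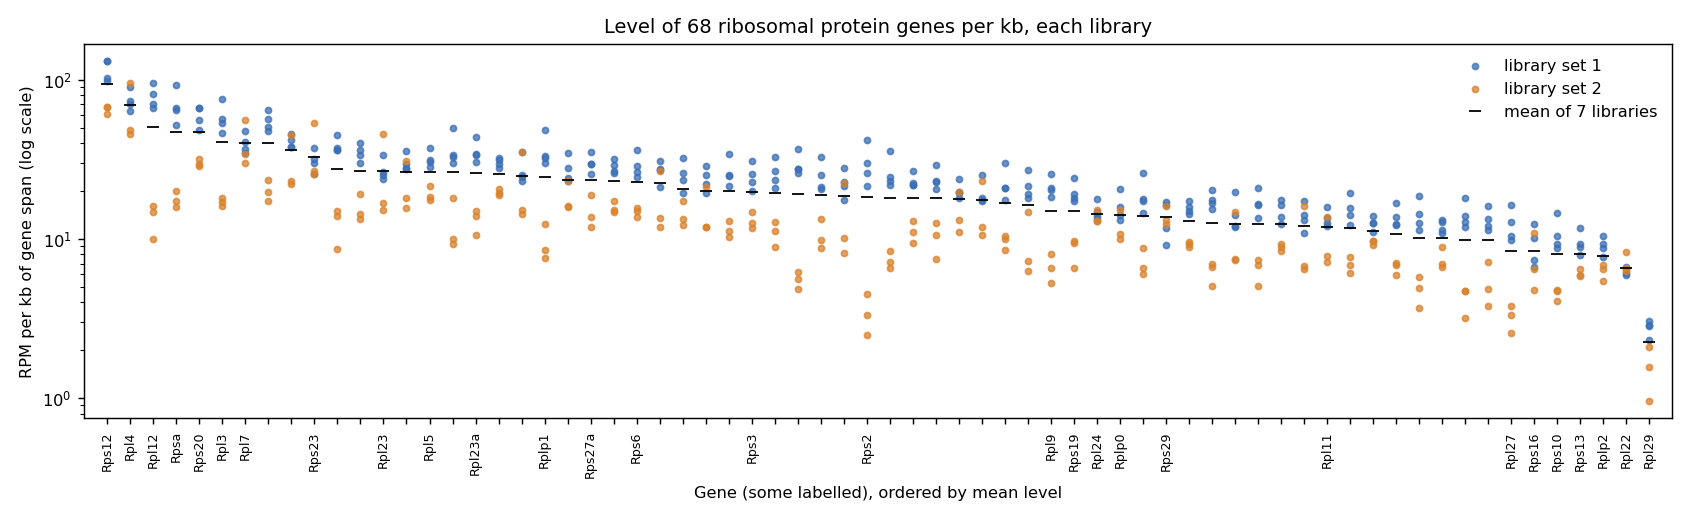
Level of the 68 ribosomal protein genes that passed the minimum, in RPM per kb of gene span on a log scale, with 1 point per library coloured by library set and a bar at the mean of the 7 libraries. The means run from 2.24 (Rpl29) to 94.1 RPM per kb (Rps12), and most genes have the points of library set 2 (DMSO 3, 20 µM and 30 µM) below those of library set 1.

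The 4 genes below the minimum were Rpl26, Rpl30, Rpl34 and Rps27. Rpl26 (chr11:68901566-68904534) and Rps27 had no read pair in any library, Rpl30 had 0.0852 RPM in 10 µM 2 alone, and Rpl34 had 0.143 RPM in DMSO 2 alone. Each of the 4 was overlapped on its own strand, over at least 99% of its span, by another gene of the table (Gm15772, Gm12191, Rpl34-ps1 and Rps27rt), and no other of the 72 was overlapped in this way. The overlapping genes were also listed at 0, apart from Gm12191 with 0.11 RPM at 20 µM and 0.04 RPM at 30 µM. A counter that assigns a read pair to neither of 2 overlapping genes would leave them without reads, the part of the overlap in these values was not tested, and the 4 genes enter no comparison.

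In the reference annotation (GENCODE M21, same build) 27 of the 72 genes held 54 snoRNA genes on their own strand, led by Rpl4 with 5. Nearly identical copies of ribosomal protein mRNAs exist as processed pseudogenes, and only unique alignments were kept. By sequence, 70 of the 72 genes shared at least 1 window of 81 bases, the read length, with a transcript of another gene, the median share of windows was 42.0%, and 30 genes shared at least 50% of them. Rps3 was among the 2 genes that shared none. Levels of genes with a high share such as Rpl9 (90.3%), Rps6 (84.0%), Rpl3 (82.7%) and Rpl23a (81.0%) are therefore uncertain.

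The libraries fell into 2 sets that cut across dose, and the ribosomal protein genes followed them. In 13103 autosomal genes, principal component 1 (78.8% of variance) set apart DMSO 1 and 2 and both 10 µM libraries (library set 1) from DMSO 3, 20 µM and 30 µM (library set 2). Depth ran from 9300549 read pairs at 20 µM to 28030180 in DMSO 2. Of the mES cell markers 9 of 10 were tested, with summed levels from 1408 to 1912 RPM, and Sox2 was listed at 0 in all libraries. Of 12 fibroblast markers, which feeder cells express, 5 were tested. The sum of all 12 ran from 55.4 to 70.2 RPM in set 1 and from 40.5 to 47.8 RPM in set 2. Of the 5 tested, 1 (Col5a1) had every library of set 2 below every library of set 1, as had 39.8% of all genes tested. Lum was at 0 in all libraries except 30 µM, Col3a1 and Postn did not exceed 0.43 RPM, and most of the sum came from Col5a1 and Fbn1. The part of feeder cells in the results was not tested.

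The summed level of the 72 genes was 5224, 5719 and 2987 RPM in DMSO 1, 2 and 3, a mean of 4643 ± 1456 RPM (SD, n = 3). It was 5819 and 7355 RPM in the 2 libraries at 10 µM (6587 ± 1086 RPM, SD, n = 2), 4071 RPM at 20 µM and 2832 RPM at 30 µM. These levels are 0.283% (30 µM) to 0.736% (10 µM 2) of all read pairs, and in the shallowest library the share was 0.407% (95% Wilson interval 0.403% to 0.411%, which covers counting error only). Both 10 µM libraries lay above all 3 DMSO libraries, and DMSO 3 lay much closer to 30 µM than to the other DMSO libraries. Rps genes made up 38.5% to 39.8% of the sum in 6 libraries and 34.7% at 20 µM. In bulk samples, a change in the make-up of the cells and a change of RNA per cell cannot be told apart.

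**Figure D2:**
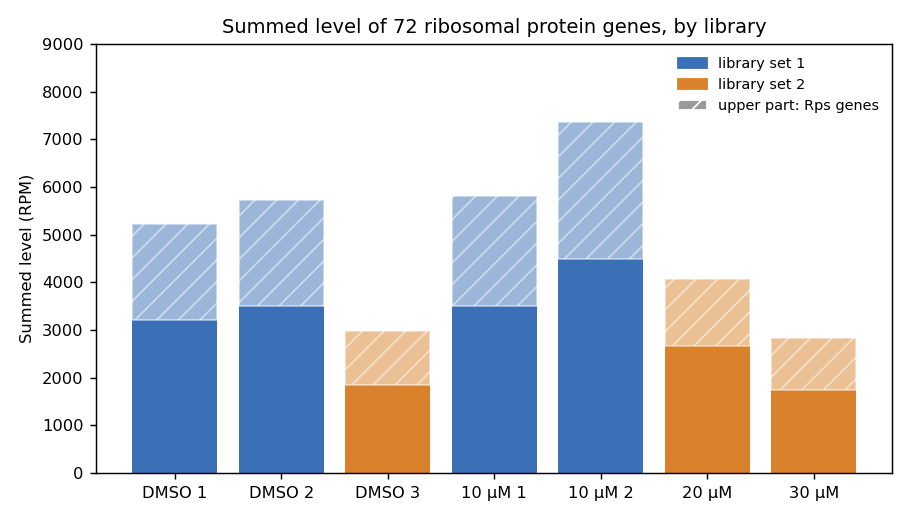
Summed level of the 72 ribosomal protein genes in each library, in RPM, with Rpl genes as the lower solid part and Rps genes as the upper hatched part of each bar. Library set 1 (blue) runs from 5224 to 7355 RPM and library set 2 (orange) from 2832 to 4071 RPM.

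The 3 controls differed widely in these genes. DMSO 3 was below DMSO 1 for 66 and below DMSO 2 for 66 of 68 genes, where 63.2% and 60% of all genes tested were. The exceptions were Rps29 and Rpl22 in each case, so it was below both for the other 66 (55.5% of all genes), although Rps23 had 41.4 RPM in DMSO 3 and in DMSO 1. The median log2 ratio of the 68 genes between DMSO 3 and DMSO 1 was -0.81, against -0.20 over all genes, while DMSO 2 differed from DMSO 1 by a median of 0.14. TMM scaling moved the ratio to DMSO 1 by 0.19 on the log2 scale, which left a median of -0.62 for the 68 genes. For 47 of the 68 genes all 3 libraries of set 2 lay below all 4 of set 1, as they did for 39.8% of all genes tested, and for 0 of the 68 they lay above (18.7% of all genes). Shorter genes had lower ratios between DMSO 3 and DMSO 1 and 2 (Spearman's rho with log2 span 0.32 over 13599 genes), and the part of gene length in these differences was not tested.

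**Figure D3:**
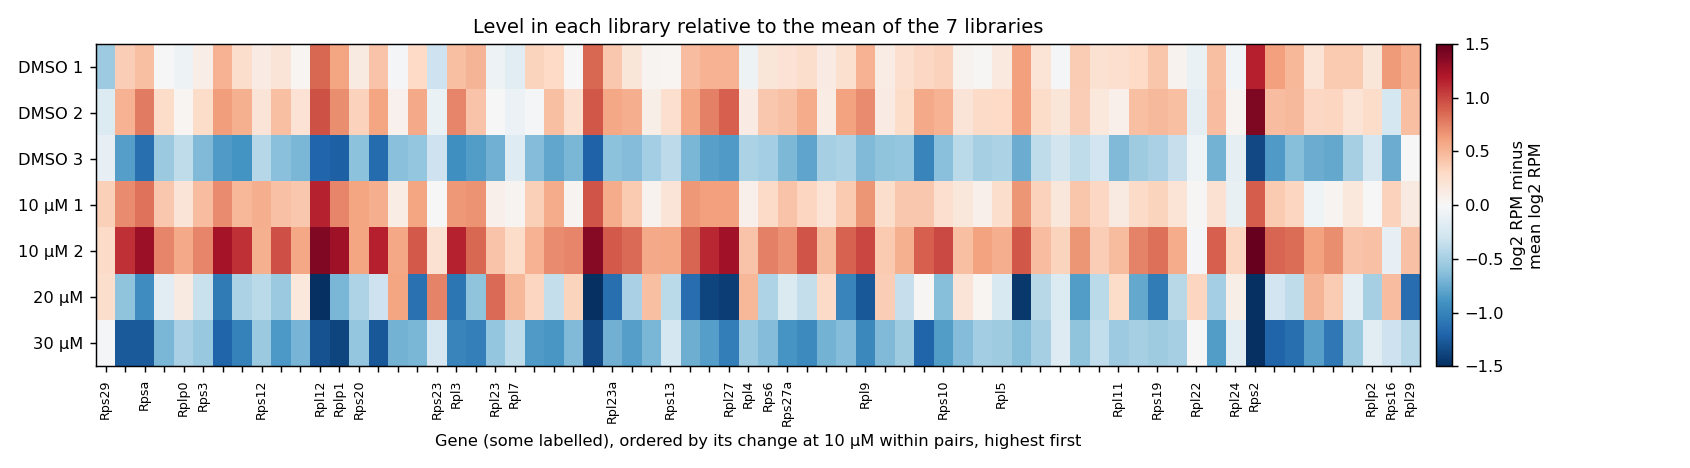
Level of each of 68 ribosomal protein genes (columns) in each library (rows), as log2 RPM minus the mean log2 RPM of the 7 libraries, on a colour scale that ends at 1.5 below (blue) and 1.5 above (red) that mean. DMSO 3 is blue for most genes although DMSO 1 and 2 are red, 10 µM 2 is the reddest row, and the 20 µM row mixes both colours.

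The comparison of 10 µM with DMSO asks whether low-dose METTL3 inhibition alters the chromatin-associated RNA of these genes. Over the 3 DMSO and 2 treated libraries none of the 68 genes passed an adjusted p of 0.05 (limma on log2(RPM + 1), 0 of 13599 genes called, 0%), with 3 genes (Rps12, Rps29 and Rplp0) at an unadjusted p under 0.05, as were 212 of the 13599 genes. The fitted change had a median of 0.52, against 0.09 over all genes, and was above 0 for 67 of 68 genes. edgeR and DESeq2 on the read pairs also called none of the 68. Without DMSO 3 the median was 0.23.

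Compared within the pairs that share a replicate number, most genes were higher at 10 µM in pair 1 and nearly all in pair 2. In pair 1, 53 of 68 genes were higher at 10 µM, against 46.8% of all genes tested, with a median log2 ratio of 0.13. In pair 2, 67 of 68 were higher, against 62.7% of all genes, with a median of 0.35. In all, 53 genes were higher in both pairs, where 36.3% of all genes were, and only Rpl29 was lower in both. The sum was 1.11-fold that of DMSO in pair 1 and 1.29-fold in pair 2, while DMSO 2 alone was 1.09-fold DMSO 1, so that pair 1 differed by about as much as the 2 controls did.

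When the replicate number entered as a block (2 pairs, 1 residual degree of freedom), limma called 30 of 68 genes higher and none lower, where 4.13% of all genes were called higher and 3.38% lower. In this fit the SE of each gene came almost wholly from genes of similar level, not from its own 2 pairs. The SEs and p-values of single genes within the pairs do not show how far their pairs differed. The median change of the 68 genes was 0.23 on the log2 scale (1.17-fold), with quartiles of 0.16 and 0.31, against 0.03 over all genes. The same block gave 18 genes, all higher, with edgeR (3.11% of all genes higher and 3.04% lower) and with TMM factors (2.91% and 3.47%). DESeq2 gave 5, also higher (0.331% and 0.779%), and these 18 and 5 were all among the 30. Rpl3, Rpl4, Rpl23a and Rps6 were among those called by limma but not by edgeR, DESeq2 or limma with TMM factors. Genes of shorter span had higher log2 changes within the pairs over all genes tested (Spearman's rho -0.28 with log2 span), while the rho among the 68 was -0.01, and the part of gene length was not tested.

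**Figure D4:**
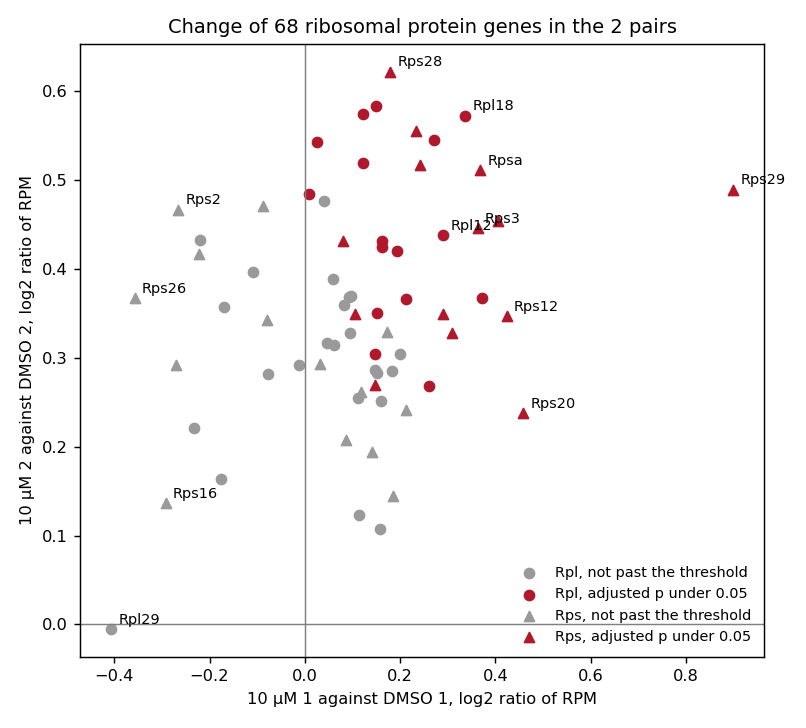
Log2 ratio of RPM between 10 µM and DMSO for each of 68 ribosomal protein genes in pair 1 (x axis) and pair 2 (y axis), with circles for Rpl and triangles for Rps genes and red for the 30 genes with an adjusted p under 0.05 in the limma fit with the replicate block. Nearly all genes lie above 0 on the y axis and 53 of them also to the right of 0, with Rps29 farthest right.

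The P stalk, which recruits the GTPase factors of translation, had 3 of its 4 genes called higher within the pairs by limma and by edgeR (4.13% and 3.11% of all genes), of which DESeq2 called Rpl12. Rpl12 (chr2:32961712-32964045), the protein at the base of the stalk, had 155.5, 165 and 37.5 RPM in DMSO 1, 2 and 3, 190 and 224 RPM at 10 µM, 23.2 RPM at 20 µM and 34.6 RPM at 30 µM. Both 10 µM libraries were above all controls, and the block gave a log2 change of 0.36 ± 0.07 (SE, limma, adjusted p = 1.27e-05). Without the block the change of Rpl12 was the highest of the 68 genes in limma, 1.05 ± 0.62 (SE, limma, adjusted p = 0.811). In edgeR and DESeq2 without the block Rpsa was higher than Rpl12 (0.78 against 0.74 and 0.77 against 0.74).
Rplp0, the stalk protein that anchors the other 2, had 56.2, 60.2 and 45.5 RPM in DMSO and 67.8 and 87.9 RPM at 10 µM, a log2 change of 0.40 ± 0.08 within the pairs (SE, limma, adjusted p = 1.39e-04, but 0.0887 with DESeq2). Rplp1 had 36.7, 39.5 and 10.4 RPM in DMSO and 40.7 and 59.1 RPM at 10 µM, a change of 0.36 ± 0.10 (SE, limma, adjusted p = 0.00678, but 0.326 with DESeq2). Rplp2 was not called, with 32.2, 34.3 and 23.9 RPM in DMSO and 28.5 and 38.4 RPM at 10 µM, values that overlapped, and its change within the pairs was -0.0054 ± 0.11 (SE, limma, adjusted p = 0.984).

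Of the other large subunit groups, Rpl5 and Rpl11, which carry the 5S rRNA into the subunit and bind MDM2 when free, did not pass. Rpl5 (chr5:107900528-107909005) had 239, 265 and 155 RPM in DMSO and 258 and 316 RPM at 10 µM, a change of 0.18 ± 0.06 within the pairs (SE, limma, adjusted p = 0.0588). Rpl11 had 46.3, 41.2 and 24.6 RPM in DMSO and 43.0 and 54.3 RPM at 10 µM, and it was lower in pair 1 and higher in pair 2. Of the 5 measured genes around the peptide exit tunnel 3 were called higher within the pairs by limma (Rpl4, Rpl19 and Rpl23a, where 4.13% of all genes were), of which edgeR called Rpl19 (3.11% of all genes), and 2 were not (Rpl17 and Rpl35). Rpl4 had 331, 379 and 250.2 RPM in DMSO and 367 and 468 RPM at 10 µM (0.23 ± 0.06, SE, limma with the block, adjusted p = 0.0100, but 0.284 with edgeR). Rpl3, a protein close to the peptidyl transferase centre, had 262, 318 and 101 RPM in DMSO and 299 and 425 RPM at 10 µM, which overlapped, with a change of 0.31 ± 0.06 within the pairs (SE, limma, adjusted p = 1.45e-04, but 0.0821 with edgeR, 0.107 with DESeq2 and 0.0963 with TMM factors). Rpl23a had 80.6, 90.7 and 39.9 RPM in DMSO and 89.5 and 115.6 RPM at 10 µM (0.25 ± 0.08, SE, limma with the block, adjusted p = 0.0237, but 0.116 with edgeR).

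In the small subunit, 14 of 28 genes were called higher within the pairs by limma and 11 by edgeR, and in the large subunit 16 and 7 of 40, a difference that was not tested. Of all genes 4.13% were called higher by limma and 3.11% by edgeR. Rpsa (chr9:120127766-120132369) had 238, 298 and 79.8 RPM in DMSO and 308 and 425 RPM at 10 µM, both above all controls, a change of 0.44 ± 0.06 within the pairs (SE, limma, adjusted p = 4.32e-09). Of the 4 genes near the mRNA exit, Rpsa, Rps14 and Rps28 were called by both tools and Rps26 was not, being lower in pair 1 and higher in pair 2. Of the 4 genes at the mRNA entry and decoding site, Rps3 and Rps23 were called by both, and Rps2 and Rps15, each lower in pair 1 and higher in pair 2, were not. Rps3, which lines the mRNA entry channel, had 116, 132 and 68.4 RPM in DMSO and 149 and 179 RPM at 10 µM, all values at 10 µM above DMSO (0.40 ± 0.07, SE, limma with the block, adjusted p = 2.77e-06).
Rps2 illustrates how far the libraries of set 2 departed, with 48.1, 56.2 and 8.38 RPM in DMSO, 40.0 and 77.6 RPM at 10 µM, 4.62 RPM at 20 µM and 6.25 RPM at 30 µM. Its change was 0.93 ± 0.79 over all DMSO libraries and 0.10 ± 0.09 within the pairs (SE, limma, adjusted p = 0.811 and 0.577). The SE within the pairs does not reflect how far the pairs of Rps2 differed, at 0.832-fold in pair 1 and 1.38-fold in pair 2.

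Rps29 had the largest change within the pairs. This small zinc-binding protein of the small subunit (chr12:69157722-69159186) had 13.5, 17.1 and 18.1 RPM in DMSO, 25.1 and 24.0 RPM at 10 µM, 23.6 RPM at 20 µM and 19.3 RPM at 30 µM. Every treated library lay above every control, and the change at 10 µM was 0.66 ± 0.13 within the pairs (SE, limma, adjusted p = 5.32e-05) and 0.58 ± 0.21 over all DMSO libraries (SE, limma, adjusted p = 0.811). Rps29 did not follow the library sets, since its DMSO 3 value was the highest of the controls.

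Other members called within the pairs by limma, edgeR and DESeq2 alike were Rps12, Rps3, Rpsa and Rpl12. Rps12 had 198, 209 and 136 RPM in DMSO and 266 and 265 RPM at 10 µM, both above all controls (0.38 ± 0.07, SE, limma with the block, adjusted p = 1.44e-06). Rps6, the small subunit protein phosphorylated downstream of mTOR, had 79.7, 93.3 and 49.3 RPM in DMSO and 85.6 and 119 RPM at 10 µM, which overlapped, with a change within the pairs just past the threshold (0.22 ± 0.08, SE, limma, adjusted p = 0.0460, but 0.167 with edgeR). Rps19, the gene most often mutated in Diamond-Blackfan anaemia, had 92.6, 96.9 and 49.3 RPM in DMSO and 87.6 and 123 RPM at 10 µM (0.13 ± 0.08, SE, limma with the block, adjusted p = 0.326). Rps27a, made as a fusion with ubiquitin, had 56.1, 65.4 and 30.2 RPM in DMSO and 65.0 and 77.3 RPM at 10 µM, which overlapped (0.22 ± 0.08, SE, limma with the block, adjusted p = 0.0802).

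The members with the lowest fitted changes over all DMSO libraries were Rpl29, Rpl22, Rplp2, Rpl24 and Rps16, from -0.03 for Rpl29 to 0.21 for Rps16. Rpl29, a heparin-binding protein of the large subunit, had 6.22, 5.81 and 4.24 RPM in DMSO and 4.69 and 5.79 RPM at 10 µM, which overlapped. Rps16 had 24.9, 13.4 and 9.59 RPM in DMSO and 20.3 and 14.7 RPM at 10 µM. Rpl22, which was not lower in set 2, had 59.3, 57.3 and 60.6 RPM in DMSO and 64.1 and 62.4 RPM at 10 µM, both above all controls (limma with the block, 0.12 ± 0.09, SE, adjusted p = 0.477).

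Members that hold a snoRNA gene and those that do not had 15 of 26 and 15 of 42 genes called within the pairs by limma (4.13% of all genes), with medians of 0.25 and 0.22. By edgeR these counts were 6 of 26 and 12 of 42 (3.11% of all genes), so the order of the 2 shares turned. Members with a pyrimidine run at the RefSeq start had 10 of 27 called by limma and 5 by edgeR with a median of 0.21 in limma, and those matched without a run 9 and 7 of 22 with a median of 0.23. Whether these subgroups differ was not tested. Over all 68 genes, 30 had both 10 µM libraries above all 3 DMSO libraries, against 16.6% of all genes tested, and none had both below, against 8.74%.

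At the higher doses there is 1 library each, so values are given against DMSO 3, the control of the same library set, without a test. At 20 µM the sum was 1.36-fold that of DMSO 3, and the genes went both ways, 45 of 68 higher (38.3% of all genes tested) and 23 lower, 61.7% of all genes being lower. At least a 1.5-fold increase was seen for 18 genes (8.58% of all genes) and a decrease of that size for 5 (11.1% of all genes). At 30 µM the sum was 0.948-fold that of DMSO 3, with 53 of 68 genes lower (43.2% of all genes) and 15 higher (56.8% of all genes), a median log2 ratio of -0.11 and no gene past 1.5-fold in either direction, where 9.12% of all genes passed it upward and 4.62% downward. The 30 µM library had nearly the profile of DMSO 3 (Pearson's r of log2 RPM 0.993 across the 68 genes, which are not independent replicates), while the 20 µM library was less like it (r 0.908).

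The largest ratio at 20 µM belonged to Rpl23 (chr11:97777526-97782439), a large subunit protein that binds MDM2 when free. It had 74.9 RPM in DMSO 3, 222.8 RPM at 20 µM (2.97-fold, 95% counting interval 2.78 to 3.17) and 82.3 RPM at 30 µM (1.10-fold, 1.03 to 1.17), against 117 to 166 RPM in set 1. Rpl19, Rps16, Rps26 and Rps23 were among the other genes more than 2-fold DMSO 3 at 20 µM, and of these 4 only Rps16 had a counting interval above 1 at 30 µM (1.35-fold, 95% counting interval 1.13 to 1.62). Rpl4 had 494 RPM at 20 µM, the highest value of any of the 72 genes in the 7 libraries, beside 250.2 RPM in DMSO 3 and 237 RPM at 30 µM.
The lowest ratios at 20 µM were 0.457-fold for Rpl29 (95% counting interval 0.259 to 0.763), 0.551-fold for Rps2, 0.616-fold for Rpl17, 0.619-fold for Rpl12 and 0.656-fold for Rpl9. At 30 µM the same 5 genes were at 0.747, 0.745, 1.07, 0.921 and 0.812 of DMSO 3. The ratios at 20 µM were lower for genes that share more windows with other transcripts (Spearman's rho -0.34 across the 68 genes), and this library was also the shallowest, and the part of either was not tested.

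**Figure D5:**
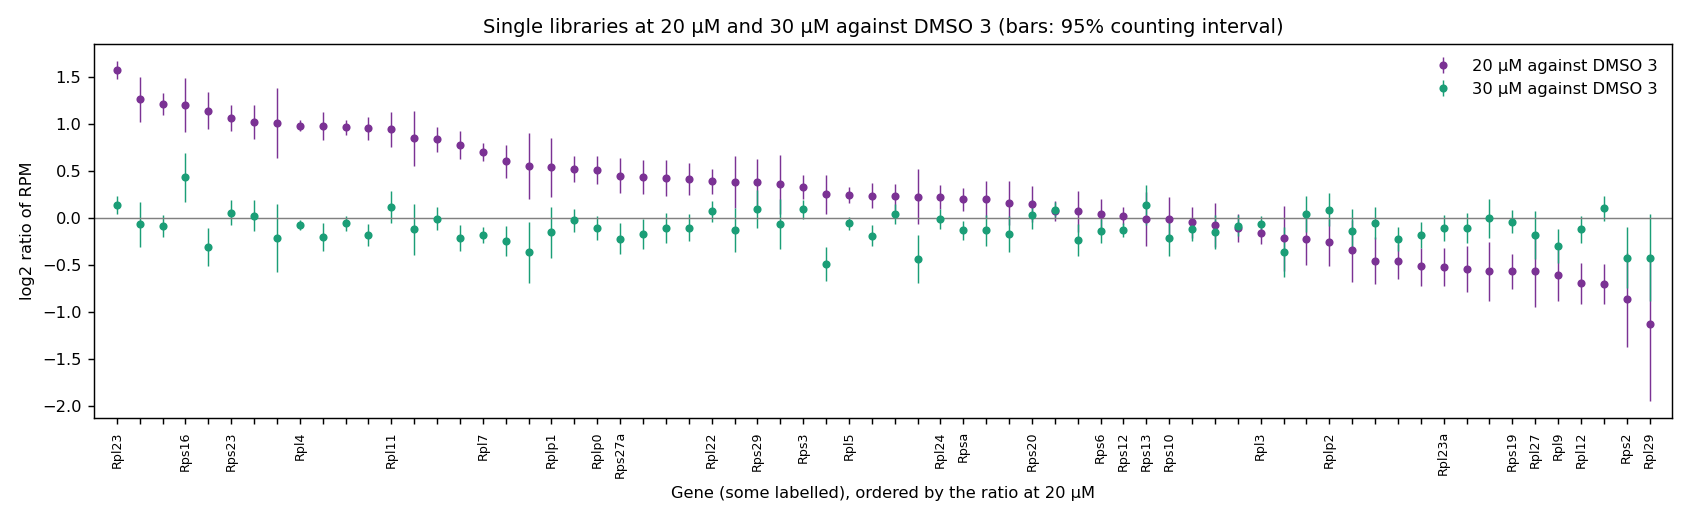
Log2 ratio of RPM to DMSO 3 for each of 68 ribosomal protein genes at 20 µM (purple) and 30 µM (green), with bars for the 95% counting interval and genes ordered by the ratio at 20 µM. The 20 µM ratios run from 2.97-fold for Rpl23 to 0.457-fold for Rpl29, while those at 30 µM stay within 1.5-fold of DMSO 3.

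Across all 7 libraries, the question was whether levels follow dose. None of the 68 genes had a slope past an adjusted p of 0.05 (limma, 0 of 13599 genes called, 0%), nor with edgeR or DESeq2, and 1 gene, Rpl29, had an unadjusted p under 0.05 in limma, as had 1174 of the 13599 genes. The median slope was -0.22 per 10 µM on the log2 scale, against -0.04 over all genes, with 62 of 68 below 0. Among the lowest slopes were those of Rps2 (-0.81 ± 0.39), Rpl12 (-0.63 ± 0.35), Rpl27 (-0.48 ± 0.26) and Rpl9 (-0.46 ± 0.23, SE, limma, adjusted p = 0.508 for each). The highest slopes were those of Rps29 (0.13 ± 0.10), Rps23 (0.12 ± 0.12), Rpl22 (0.08 ± 0.06), Rpl23 (0.06 ± 0.17) and Rpl7 (0.02 ± 0.10, SE, limma), with adjusted p from 0.542 to 0.904.

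The slope depended on single libraries. When the 30 µM library was left out, the median slope was -0.036 and that of the sum 0.056, and no gene was called by limma. When DMSO 3 was left out, 27 of the 68 genes passed, all lower with dose (limma, 11.3% of all genes lower and 6.97% higher), and library set 2 then consisted of the 20 µM and 30 µM libraries alone. With the library set as a term the median slope was 0.03, with 50 of 68 genes above 0, and limma called none of the 68 and 27 of all genes.

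The ribosomal protein genes of the X chromosome, which lie on a chromosome that is being silenced on 1 allele, were read from the same fit. All 4 were higher in both pairs (36.3% of all genes) and were called higher with the block by limma (4.13% of all genes), and 3 by edgeR (3.11%). Rpl36a had 58.4, 69.3 and 44.0 RPM in DMSO and 73.0 and 98.2 RPM at 10 µM, and Rps4x had 116, 132 and 80.8 RPM in DMSO and 136 and 176 RPM at 10 µM. Rpl10 had 19.5 RPM in DMSO 3 and 14.2 RPM at 20 µM, while Rps4x had 80.8 and 172 RPM. Of the 4, Rpl10 and Rps4x had allelic ratios, the share of reads from the inactive X, which ran from 0.25 to 0.345 for Rpl10 and from 0.303 to 0.372 for Rps4x over the 7 libraries. At 20 µM and 30 µM they were 0.25 and 0.316 for Rpl10 and 0.356 and 0.305 for Rps4x, beside medians of 0.216 and 0.204 over the 386 genes of that table, whose median was 0.269 to 0.314 in DMSO and 0.288 and 0.292 at 10 µM.

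Lists of other genes of the translation apparatus were read from the same fit. Of 17 measured TOP genes outside the ribosome, 5 were called higher within the pairs by limma (Eef1a1, Eef1b2, Eef2, Gnb2l1 and Npm1) and 3 by edgeR, where 4.13% and 3.11% of all genes were, and none lower, with a median of 0.15. Among 76 mitochondrial ribosomal protein genes 3 were called higher by limma and 2 by edgeR, a share near that of all genes, and none lower (median 0.14). Among 25 genes of ribosome biogenesis limma called 2, Nop10 and Utp20, and edgeR 1 (median 0.06), and among 6 paralogues limma called 1, Rpl7l1, and edgeR none. Eef1a1, the elongation factor that brings aminoacyl-tRNA to the ribosome, had 444, 538 and 215 RPM in DMSO and 513 and 781 RPM at 10 µM. None of these lists had a gene called without the block. Median log2 ratios of DMSO 3 to DMSO 1 were 0.05 for TOP genes, -0.31 for mitochondrial ribosomal protein genes and -0.15 for ribosome biogenesis genes, beside -0.81 for the 68 genes.

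Outside these lists, the 5 genes of 8854 whose level was most like the summed level of the 72 genes over the 7 libraries were Prpf19 (Pearson's r 0.996), Hist1h1d (0.993), Ufm1 (0.993), Ddx24 (0.993) and Hist1h4a (0.992). Prpf19, a splicing factor, had 43.3, 43.7 and 32.8 RPM in DMSO, 45.9 and 51.7 RPM at 10 µM, 37.3 RPM at 20 µM and 31.7 RPM at 30 µM. Each of the 5 genes had its 3 lowest values in the libraries of set 2.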

How the data were processed

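After filtering out rRNA with Bowtie2, the authors mapped reads with STAR to mm10 with strain SNPs masked, kept unique alignments, and counted read pairs over exons and introns by strand with featureCounts. The deposited expression values are RPM, scaled by the authors with edgeR to each library's total on genes, and the deposited allelic ratios are fractions, Xi/(Xi + Xa), for 386 X-linked genes. A gene length was deposited beside them (another unit, bases) and served for levels per kb. File starts count from 0 (12332 of 21158 genes were 1 below the RefSeq start, 722 equal) and are given here from 1.

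RPM values were whole multiples of 1 read pair for 100% of values (within 0.0001 RPM), so read pairs were recovered and a count test was run on them. Depth in pairs was 20915215, 28030180 and 21472037 for DMSO 1 to 3, 25366220 and 23470182 for the 10 µM libraries, 9300549 for 20 µM and 23367051 for 30 µM. The 13599 genes averaging 1 RPM or more were fitted with limma 3.58.1 (eBayes with trend) on log2(RPM + 1), which understates changes of low genes, with Benjamini-Hochberg adjustment over all of them. Alternatives were edgeR 4.0.16 (quasi-likelihood) and DESeq2 1.42.0 on read pairs (R 4.3.3), TMM factors, a pseudocount of 0.1, a filter at 5 RPM or none, each library left out, the library set as a term, and the replicate block. Same-numbered DMSO and 10 µM libraries were taken as pairs, since the study reports that wells of 1 biological replicate came from 1 batch of cells, and their deviations correlated (r 0.621 over 13599 genes). Nothing else in the labels says that libraries came from separate cultures, so p-values measure at most the spread between these libraries. With the block, limma took each gene's SE almost wholly from genes of similar level. Those SEs and p-values therefore do not measure the gene's own spread between the pairs. Counting intervals for ratios are exact binomial, and with Wilson intervals cover counting error only.

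The fits were tested on simulated data drawn without library sets, in which 200 genes were changed by a known amount. With the block, limma recovered 14 of them and edgeR 9 at a log2 change of 0.25. At a log2 change of 0.5 they recovered 129 and 127. Named genes were the 5 members with the highest and the 5 with the lowest fitted change in each of the 2 comparisons, fixed role genes (Rpl3, Rpl5, Rpl11, Rpl23a, Rplp0, Rplp1, Rplp2, Rps3, Rps6, Rps19, Rps27a, Rpsa), the 5 highest and 5 lowest levels per kb, and members under the filter. Others named in the text, among them Rps12 as called by every tool, Rps14, Rps15 and Rps26 of the role lists and some genes past 2-fold at 20 µM, were picked after their values were seen. Values of a few single genes are not reported here, although they enter the counts, sums and medians. Members and lists were chosen with earlier results of these data known. Tables and intervals were made with pandas 2.3.3, scipy 1.17.1 and numpy 2.4.6 under Python 3.11.15.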

Additional observations from a re-analysis of the deposited data

How the results depend on the processing

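The replicate block decided the calls at 10 µM. Without it no ribosomal protein gene and no gene of 13599 was called by limma (212 genes at an unadjusted p under 0.05), and with it limma called 30 ribosomal protein genes and 1020 genes. With the block, edgeR called 18 and 837, DESeq2 5 and 151, TMM factors gave 18 and 868, and a pseudocount of 0.1 gave 29 and 1023. These combinations, library set 1 without the block, and the library set term with edgeR, with TMM factors or without the 20 µM library were chosen after seeing the data. Over all genes at 10 µM, DESeq2 without the block, library set 1 without the block and leaving out DMSO 3 each called 1. With single replicates left out at 10 µM, 0 ribosomal protein genes and 0 to 1 genes were called, the median log2 change of the ribosomal protein genes was 0.23 (without DMSO 3) to 0.71 and the change of their sum 0.26 to 0.73.

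For the dose trend, DESeq2 called 129 genes, and the library set term 27, or 73 with edgeR, 68 with TMM factors and 156 without the 20 µM library, with no ribosomal protein gene among them. With single replicates left out, 0 to 27 ribosomal protein genes and 0 to 2485 genes were called, the upper values without DMSO 3, and the median slope was -0.35 to -0.19 and the slope of the sum -0.32 to -0.16. Without the 30 µM library the median slope was -0.036 and the slope of the sum 0.056, above 0.

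Of the values of single named genes under alternatives, 400 kept direction and side of the threshold, 32 passed it and 26 reversed. At 10 µM Rplp2 and Rps16 reversed with the block (-0.0054 and -0.076), with the block and edgeR (-0.023 and -0.11), DESeq2 (-0.031 and -0.11), TMM factors (-0.038 and -0.11) or the other pseudocount (-0.0060 and -0.078), and in set 1 (-0.0054 and -0.076). Rpl22 reversed with DESeq2 (-0.0012). With single replicates left out at 10 µM, the change ran from -0.059 to 0.35 for Rplp2, -0.076 to 0.57 for Rps16, -0.066 to 0.36 for Rpl24 and -0.17 to 0.095 for Rpl29, and the slope with dose from -0.051 to 0.071 for Rpl23 and -0.0053 to 0.024 for Rpl7. Without the 30 µM library the slopes of Rpl23 and Rpl7 were 0.55 and 0.32, without the 20 µM library -0.075 and -0.057, and with the set term as well that of Rpl12 was 0.034. The cause was not tested. With 1 library at 20 µM and at 30 µM and 2 pairs at 10 µM, replicate error is known only roughly, and at 9300549 read pairs the 20 µM library leaves the ratio of Rpl29 with a 95% counting interval from 0.259 to 0.763.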

Other observations

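Among 7 ribosomal protein pseudogenes in the table by name, Rpl14-ps1 (chr7:45324958-45325651) had 1.86, 2.10 and 9.83 RPM in DMSO 1, 2 and 3, 2.21 and 2.81 RPM at 10 µM, 31.2 RPM at 20 µM and 13.5 RPM at 30 µM. All 3 libraries of set 2 were thus above all 4 of set 1. Rpl14 itself had 72.6, 87.6 and 50.7 RPM in DMSO, 75.8 and 109 RPM at 10 µM, 72.8 RPM at 20 µM and 49.7 RPM at 30 µM. Ncl, encoding nucleolin, a protein of ribosomal RNA processing, had 371, 328 and 862 RPM in DMSO, 362 and 328 RPM at 10 µM, 2949 RPM at 20 µM and 1095 RPM at 30 µM, which is the same order of the library sets. Npm1, another abundant nucleolar protein, had 2151 RPM at 20 µM and 832 to 1066 RPM in the other 6 libraries. These 3 genes were chosen after their values were seen, and the levels at 20 µM, with 1 library, were not tested.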
